A study of Zea mays with 40 samples.

Results

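Among 65196 rows of the expression table of maize kernels, 8 were expressed in a YZU line and silent in both parental lines. A row was taken as on when its mean over the 10 libraries of line T147 or of line T191 was at least 3 FPKM, and as off when its mean was at most 0.1 FPKM in each of the parental lines T209 and T210. FPKM is the number of fragments on a gene divided by its length and by the total of mapped fragments. The line means themselves chose the 8 rows, so these means are given as a description and no difference between the lines was tested on them.

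The 40 libraries came from kernels of 4 inbred lines, with no treatment named in the labels. Lines T147 and T191 carry the numbers of YZU147 and YZU191 and are called YZU lines here, and the remaining lines T209 and T210 were taken as the parents of the mapping population. Which of them is DH1M is not told by the labels. The mapping population was bred from a cross of the 2 parents. The paper's caption for the lines followed over DAP names the parents and recombinant inbred lines. The first ears were taken 10 days after pollination (DAP), and further ears followed at 20, 30, 40, and 50 DAP, with 2 ears for each line and DAP. In such kernel RNA, fewer cells of a type and less RNA per cell cannot be told apart, and each line is a single inbred genotype.

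A maize kernel holds an endosperm, which stores starch and zein proteins, an embryo, which stores oil, and maternal tissue around them. Cell division dominates the first days after pollination, the stores are laid down during the following weeks, and the kernel then dries. Maize inbred lines are known to differ in which genes their genomes carry, and transcripts absent from the reference annotation are usually recovered by assembling the reads. Whether any of the 8 rows is such a line-specific gene was not tested, and they are known here by their identifiers only.

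Over all 40 libraries the summed level of 8 starchy endosperm genes lay between 11.1 and 14090 FPKM, and 1 or more libraries were at 0 for 2 of them. The waxy1 starch synthase GRMZM2G024993 lay between 0.409 and 2206 FPKM, the oleosin OLE16 of embryo oil bodies lay between 396 and 40318 FPKM, and the summed level of the leaf photosynthesis markers, 2 small subunits of Rubisco, lay between 0 and 3.60 FPKM. The number of reads is unknown. From the steps between low FPKM values, the depth relative to the other libraries was 0.612 to 1.60 in T147, 0.651 to 1.19 in T191, 0.903 to 2.30 in T209, and 0.866 to 2.07 in T210. Spearman's rho over genes between the 2 ears of a group ranged between 0.843 and 0.967.

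All 8 rows were loci assembled from reads (MSTRG identifiers), and none carried a GRMZM gene name or any other name. The whole table holds 35991 GRMZM rows, 25650 assembled rows, and 3555 rows with other names. Of the 8 loci, 7 were on in T147 and 1 was on in T191, and none was on in both lines. In the YZU line where it was not on, a locus was off (at most 0.1 FPKM) in 6 cases, and MSTRG.52994 and MSTRG.34273 had means between the limits in T191. In the parental lines, 4 of the 8 were listed at 0 in all 20 libraries, and the highest parental value of any of them was 0.314 FPKM, for MSTRG.34273.

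**Figure D1:**
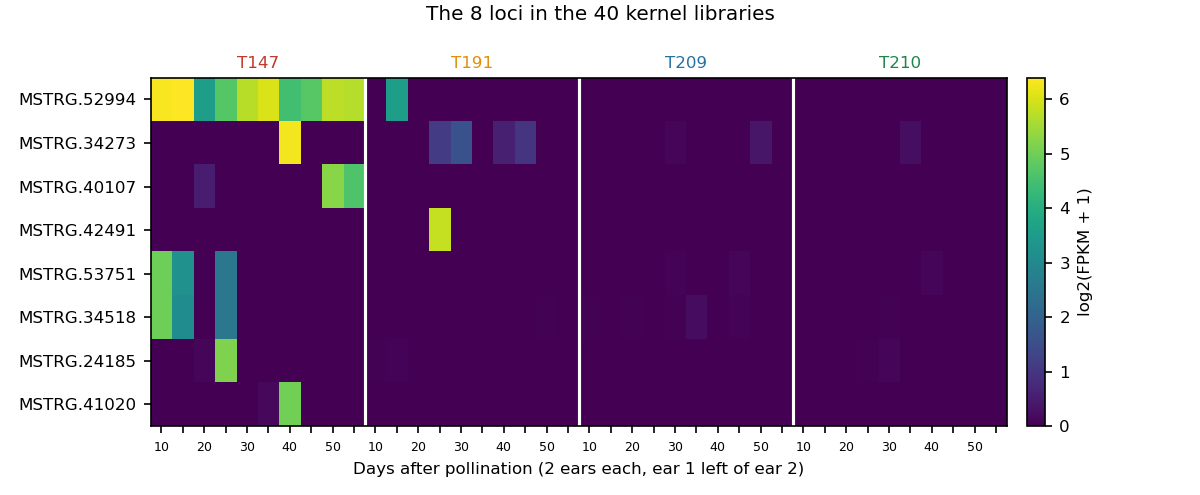
Level of the 8 loci, as log2(FPKM + 1) in colour, in each of the 40 libraries, ordered by line and DAP. MSTRG.52994 fills all 10 libraries of T147, and the other 7 loci are bright in 1 to 3 libraries of T147 or T191.

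MSTRG.52994 was the locus with the highest mean and the only one of the 8 that was present throughout filling. In T147 its ears had 79.2 and 83.4 FPKM at 10 DAP, 11.0 and 25.3 FPKM at 20 DAP, 51.4 and 64.9 FPKM at 30 DAP, 20.9 and 25.6 FPKM at 40 DAP, and 53.6 and 50.6 FPKM at 50 DAP. The line mean was 46.6 FPKM, and every T147 library exceeded every library of the other 3 lines. All 20 parental libraries were at 0. In T191, 9 libraries were at 0 and the second ear at 10 DAP had 10.8 FPKM, which alone made the T191 mean of 1.08 FPKM.

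The T191 library with that value also held other rows seen in T147. In it, 11 rows rose above 0.2 FPKM that were at least 2 FPKM in all 10 T147 libraries and at most 0.2 FPKM in the other 9 T191 libraries. These limits were set after the values were seen. No row could be examined in this way in another T191 library, because each of the 11 was above 0.2 FPKM in this one. With the lines exchanged, 12 to 14 rows of T191 could be examined in each T147 library. At most 2 of them were above 0.2 FPKM, and the highest share of the T191 level was 62.9%, in the first ear at 20 DAP. The 11 rows, MSTRG.52994 among them, had 13.3% to 42.5% of the mean of the 2 T147 ears at 10 DAP, with a median of 19.3%, and MSTRG.52994 had 13.3%. The named row GRMZM2G435244 had 43.6 FPKM there, against 134.8 FPKM in T147 at 10 DAP and at most 0.124 FPKM in the other T191 libraries. Whether kernels or RNA of another line were in this library was not tested. Without this library MSTRG.52994 was at 0 in T191.

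Within T147 the level of MSTRG.52994 differed among DAP without a difference between late and early filling. The limma model of the 10 T147 libraries, on the log2(FPKM + 1) scale, gave an adjusted p of 0.00136 for any difference among the 5 DAP, where 83.1% of the 31448 rows tested in T147 passed the threshold of 0.05. The means of the 2 ears were 81.3 ± 2.94 FPKM at 10 DAP, 18.1 ± 10.1 at 20 DAP, 58.1 ± 9.52 at 30 DAP, 23.3 ± 3.36 at 40 DAP, and 52.1 ± 2.13 at 50 DAP (SD, n = 2 each). The locus was thus lower at 20 and 40 DAP than at the 3 other DAP, and no ear at 20 or 40 DAP reached an ear of those. Late filling (40 and 50 DAP) averaged 37.7 FPKM and early filling (10 and 20 DAP) 49.7 FPKM, with a log2 difference of -0.09 (standard error 0.23, limma adjusted p = 0.731). The sign of this small difference turned with rescaled libraries, to 0.17 (limma adjusted p = 0.540), and without the second ear at 20 DAP, to 0.19 (limma adjusted p = 0.314).

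**Figure D2:**
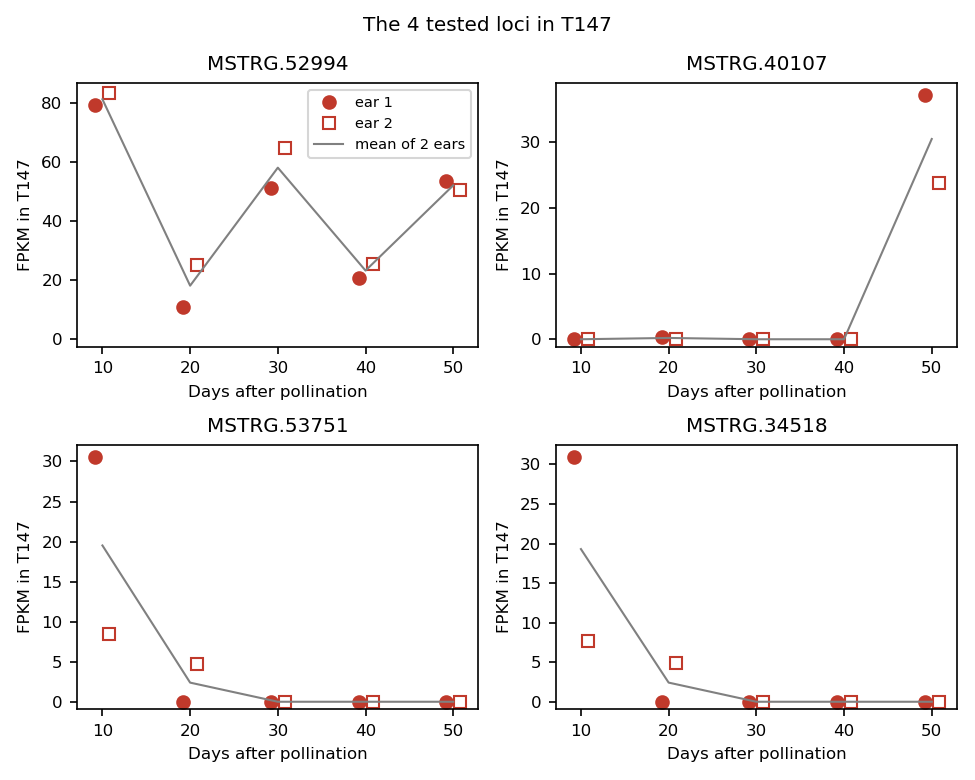
FPKM of the 4 loci that passed the filter on low values in T147 against days after pollination, with filled circles for ear 1, open squares for ear 2, and a line through the mean of the 2 ears. MSTRG.52994 is above 10 FPKM in every ear, MSTRG.40107 appears at 50 DAP, and MSTRG.53751 and MSTRG.34518 appear at 10 DAP and in 1 ear at 20 DAP.

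Over the 20 libraries of T147 and T191, the rows whose levels followed MSTRG.52994 most closely were GRMZM2G154278 (Pearson's r = 0.974), GRMZM2G157933 (r = 0.973), and MSTRG.46138 (r = 0.972). These are descriptions over 20 libraries of which 10 share each line, and 9 of the 10 T191 libraries had at most 0.137 FPKM of any of the 3. All 3 rows were also expressed in every library of parental line T210, with medians of 31.1, 1.32, and 6.42 FPKM. In T209, GRMZM2G154278 had 3.88, 12.3, and 14.4 FPKM in the first ears at 10, 20, and 30 DAP. It had at most 0.177 FPKM in the other T209 libraries. Within T147, GRMZM2G154278 averaged 37.3 FPKM at 20 DAP and 28.6 FPKM at 30 DAP, the order opposite to that of MSTRG.52994. GRMZM2G154278 and MSTRG.46138 were themselves among the 11 rows seen in the T191 library at 10 DAP. Over all 40 libraries only MSTRG.13993 had r above 0.9 with MSTRG.52994 (r = 0.952) among rows that reached 2 FPKM in a library.

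MSTRG.13993 fell just outside the rule, with a T147 mean of 2.68 FPKM. In T147 its 10 libraries lay between 1.49 and 4.88 FPKM. Every other library was lower, with at most 0.113 FPKM in T191, in the second ear at 10 DAP, and 0.394 FPKM in T209, in the first ear at 30 DAP. Its late minus early difference in T147 was 0.09 (standard error 0.21, limma adjusted p = 0.721), and its adjusted p for any difference among the 5 DAP was 0.129. It was thus, like MSTRG.52994, above 1 FPKM in every T147 library.

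The other 7 loci each had 1 FPKM or more in only 1 to 3 libraries of the line where they were on. MSTRG.40107 had 37.2 and 23.8 FPKM in the 2 ears of T147 at 50 DAP, 0.394 FPKM in the first ear at 20 DAP, and 0 in the other 7 T147 libraries and in all libraries of T191, T209, and T210. Both ears at the last DAP thus carried it, and no ear at 40 DAP did. Its means in T147 were 15.3 FPKM late and 0.0985 FPKM early, a log2 difference of 2.35. This is a description, since the locus passed the filter on low values only through 50 DAP. Without the first ear at 50 DAP it no longer met the rule. Over the 40 libraries, 37 rows that reached 2 FPKM in a library had r above 0.9 with it. Such r rests mostly on the 2 ears at 50 DAP. In the whole table, 38 and 26 rows were seen in only the first or only the second of these 2 libraries.

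MSTRG.53751 and MSTRG.34518 had 1 FPKM or more in the same 3 libraries, at nearly the same level. MSTRG.53751 had 30.5 and 8.50 FPKM in the ears of T147 at 10 DAP and 4.78 FPKM in the second ear at 20 DAP. MSTRG.34518 had 30.9, 7.69, and 4.84 FPKM in these libraries. Both were at 0 in the other 7 T147 libraries, including the first ear at 20 DAP, and at most 0.154 FPKM in any library of the other lines. The FPKM of MSTRG.34518 divided by that of MSTRG.53751 was 1.01, 0.905, and 1.01 in the 3 libraries, and r over the 40 libraries was 0.999. Whether the pair share sequence, so that the same reads could be divided between them, was not tested. One more assembled locus, MSTRG.40943, had r of 0.980 and 0.981 with MSTRG.53751 and MSTRG.34518 and did not reach a T147 mean of 3 FPKM.

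Both loci passed the filter on low values only through early libraries, so their timing is a description. In T147, MSTRG.53751 averaged 0 FPKM late and 11.0 FPKM early, a log2 difference of -2.69. MSTRG.34518 averaged 0 FPKM late and 10.9 FPKM early, a difference of -2.67. At 10 DAP the first ear was far above the second ear in both, so the level at this DAP is known poorly, with 19.5 ± 15.6 FPKM for MSTRG.53751 and 19.3 ± 16.4 FPKM for MSTRG.34518 (SD, n = 2 each). Without the first ear at 10 DAP neither locus met the rule. Since the 2 loci move as one, they do not count as separate evidence of timing.

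The remaining 4 loci each had 99.7% or more of the sum of their line in a single library, so that neither ear-to-ear spread nor timing can be read from them. MSTRG.34273 had 77.0 FPKM in the first ear of T147 at 40 DAP and 0 in the other 9 T147 libraries. In T191 it was the only one of these 4 loci with 1 FPKM or more outside the library where it was high, with 1.19 FPKM at 20 DAP in the second ear, 2.06 FPKM at 30 DAP in the first ear, 0.488 and 0.978 FPKM at 40 DAP, while parental libraries had at most 0.314 FPKM. MSTRG.41020 had 32 FPKM in the same first ear of T147 at 40 DAP, 0.0969 FPKM in 1 other T147 library, and 0 in the other 38 libraries.

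MSTRG.24185 had 34.7 FPKM in the second ear of T147 at 20 DAP, 0.0575 FPKM in the first ear, and no more than 0.0727 FPKM in any library of another line. MSTRG.42491 was the only locus on in T191. It had 56.6 FPKM in the second ear of T191 at 20 DAP and 0 in the other 39 libraries. The other ear of the same line and DAP was thus near or at 0 for each of these 4 loci.

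Of the 8 loci, 4 passed the filter on low values in their own line (at least 1 FPKM in at least 2 libraries), all in T147. Of these, 1 was higher and 2 were lower late, where 73.6% of all rows tested in T147 passed (30.8% higher and 42.8% lower late). All 4 passed the test for any difference among the 5 DAP, where 83.1% of all rows tested in T147 passed. MSTRG.40107, MSTRG.53751, and MSTRG.34518 passed the filter only through the DAP where they were high, so a difference was bound to be found in them and the counts say nothing about the loci as a group. The median late minus early difference of all rows tested in T147 was -0.21, and 0.016 with rescaled libraries. In T191, MSTRG.42491 failed the filter, so no locus was tested there and none could be called. Of the 33067 rows tested in T191, 52.9% passed between late and early (26.6% higher and 26.3% lower late). For any difference among the 5 DAP, 48% passed.

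**Figure D3:**
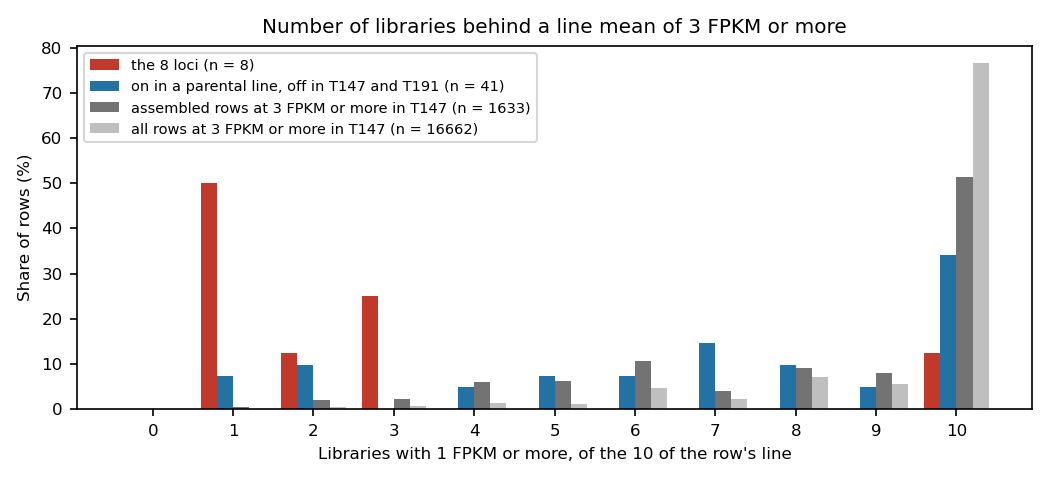
Share of rows (%) by the number of libraries, of the 10 of their line, with 1 FPKM or more, for the 8 loci, the 41 rows on in a parental line and off in T147 and T191, and assembled and all rows at 3 FPKM or more in T147. Of the 8 loci, 7 lie at 3 libraries or fewer, while 76.7% of all T147 rows lie at 10.

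The line means of most of the 8 loci therefore came from few libraries. A single library held at least 90% of the sum of the line in 4 of 8, and at most 3 libraries reached 1 FPKM in 7 of 8. Among all 16662 rows with a T147 mean of at least 3 FPKM, 17 (0.102%) had such a single library and 201 (1.21%) were at 1 FPKM or more in at most 3 libraries. Among the 1633 assembled rows of these, the numbers were 13 (0.796%) and 77 (4.72%). In T191, 16 of 16804 rows (0.0952%) and 11 of 1905 assembled rows had 90% or more in 1 library. These shares are given as background, and the 8 were not tested against them.

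The same limits applied the other way round gave more rows. A mean of at least 3 FPKM in T209 or T210 and at most 0.1 FPKM in both T147 and T191 was met by 41 rows, of which 8 were on in T209 and 33 in T210, and none in both. They comprised 26 assembled rows, 12 GRMZM rows, and 3 rows with other names. A single library held 90% or more in 3 of the 41, at most 3 libraries reached 1 FPKM in 7, and all 10 libraries did in 14. The number of rows with a mean of at least 3 FPKM was 16662 in T147 and 16804 in T191, against 16687 in T209 and 16341 in T210, so the lines had similar numbers of expressed rows.

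**Figure D4:**
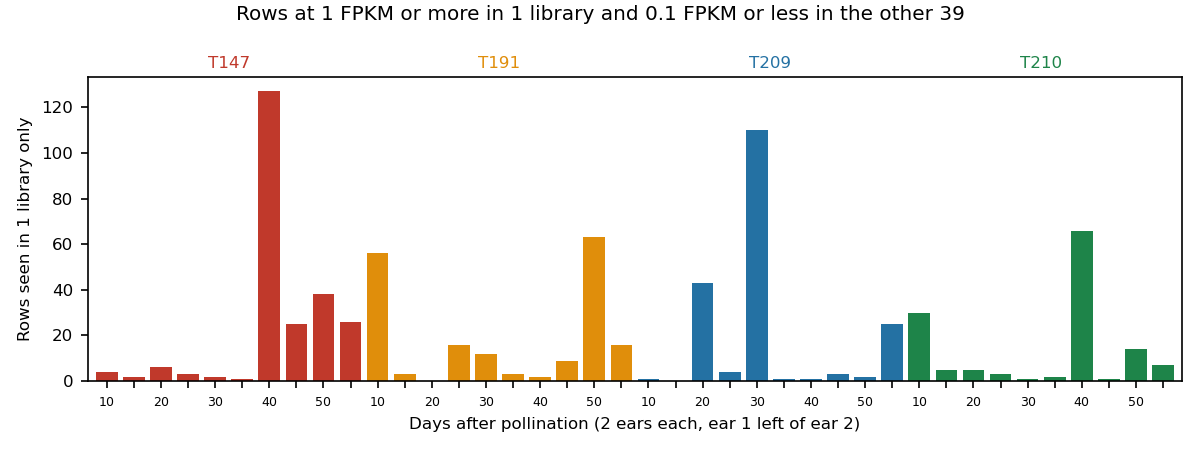
Number of rows with 1 FPKM or more in the library named on the horizontal axis and at most 0.1 FPKM in the other 39. The first ear of T147 at 40 DAP has 127 such rows, the highest number of the 40 libraries, whose median is 4.5.

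The first ear of T147 at 40 DAP, which carried MSTRG.34273 and MSTRG.41020, also held more rows of its own than any other library. In it 127 rows, 115 of them assembled, had at least 1 FPKM while the other 39 libraries had at most 0.1 FPKM. The range over the 40 libraries was 0 to 127, with a median of 4.5. Rows that reached 2 FPKM in a library and had r above 0.9 over the 40 libraries numbered 102 for MSTRG.34273 and 126 for MSTRG.41020, and the pair had r = 0.941 with each other. Each locus was high in this library only, so these values of r rest mostly on it. Without this library 6 loci met the rule, and the part of the library in the 2 loci was not tested further.

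The row most opposite to both loci, chosen after its values were seen, was GRMZM2G014854 (LOC100282583), with r = -0.73 for MSTRG.34273 and -0.75 for MSTRG.41020. It had 0.326 FPKM in the first ear of T147 at 40 DAP and between 25.1 and 199.8 FPKM in each library of T191, T209, and T210. The rows most opposite to MSTRG.24185 and MSTRG.42491 were picked in the same way. MSTRG.143 was at 0 in the second ear of T147 at 20 DAP and at 2.78 FPKM or more in the libraries of T191, T209, and T210, and GRMZM2G114675 (LOC100382415) had 1.52 FPKM in the second ear of T191 at 20 DAP and 14.9 FPKM in the first. GRMZM2G159643 (LOC100285365), most opposite to MSTRG.40107, had 0.434 and 2.75 FPKM in T147 at 50 DAP and 4.83 FPKM or more in every library of T191, T209, and T210. These are single rows picked from the whole table for the lowest r, among rows with a median of at least 2 FPKM. Each of these loci was high in only 1 or 2 libraries, so a row picked this way was bound to be low there. Whether reads moved between the paired rows was not tested.

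Close to the limits, the loci just inside 3 FPKM were MSTRG.41020 with 3.21 FPKM and MSTRG.24185 with 3.48 FPKM. Just below it, beside MSTRG.13993, lay MSTRG.37387 with a T191 mean of 2.63 FPKM, of which the first ear at 10 DAP had 25.5 FPKM. On the side of the parents, MSTRG.34273 with 0.0388 FPKM in T209 was nearest inside, and MSTRG.42683 (3.15 FPKM in T147, 0.132 FPKM in T209) and GRMZM2G496991 (3.24 FPKM in T191, 0.176 FPKM in T209) were nearest outside. MSTRG.42683 had 30.9 FPKM in the second ear of T147 at 40 DAP and at most 0.494 FPKM in the other T147 libraries, so it too came from a single library.

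No named row met both limits, and GRMZM2G496991 was included when the parental limit was 0.2 FPKM. With a limit of 2 FPKM in the YZU lines, 2 of the 18 rows were named, GRMZM2G099092 and GRMZM5G853202. A named row also entered in 4 of the 40 counts that left out a library, in each case a parental one. Of the rows at most 0.1 FPKM in both parental lines, 44 had their higher YZU mean between 1 and 3 FPKM, and 15 of these carried a gene or clone name. The highest of them was GRMZM5G853202, with line means of 2.44 FPKM in T147 and 1.92 FPKM in T191, against 0.0207 FPKM in T209 and 0 in T210. Unlike each of the 8 loci, it was above 0 FPKM in every library of both YZU lines. At 10 DAP it had 10.9 and 7.47 FPKM in T147 and 6.89 and 6.82 FPKM in T191, and the later libraries of both lines had less than 2 FPKM.

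GRMZM5G853202 was lower in late than in early filling of both YZU lines. In T147 the late mean was 0.398 FPKM and the early mean 5.09 FPKM, a log2 difference of -1.68. This is a description, since the row passed the filter on low values in T147 only with early libraries. In T191 the late mean was 0.689 FPKM and the early mean 3.77 FPKM, a difference of -1.13 (standard error 0.23, limma adjusted p = 0.00311). Of all rows tested in T191, 26.3% passed as lower late. The difference in T191 minus that in T147 was 0.55 (standard error 0.31, limma adjusted p = 0.266) in a model of the 20 libraries, in which 10.9% of 37426 rows passed, so no difference of the fall between the lines was shown. None of the 8 loci was on in both lines, so no such comparison is given for them.

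The next named rows, with T147 means of 1.62 to 2.05 FPKM, were highest in a T147 library at 40 or 50 DAP, and their timing was not tested. GRMZM2G099092 (LOC103629617) had 8.07 and 12.4 FPKM in T147 at 40 DAP and was at 0 in T191. GRMZM5G867918 had 7.58 and 8.35 FPKM in T147 at 50 DAP, the 2 libraries that carried MSTRG.40107. GRMZM2G021277 (LOC100383025) had 1.45 and 15.5 FPKM in T147 at 40 DAP and 3.51 and 1.01 FPKM in T191 at 40 DAP. GRMZM2G408949 was highest in the first ear of T147 at 40 DAP, with 9.88 FPKM, and GRMZM2G148147 had 16.2 FPKM in that ear and 0 in T191, T209, and T210.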

How the data were processed

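The authors deposited 1 table of FPKM values for 40 kernel libraries (TruSeq libraries from total RNA). The submitters' processing notes name B73 RefGen_v3, Bowtie 0.12.2, and Cuffdiff, without their roles. FPKM keeps no read counts. Relative depth was estimated from the most frequent ratio of low values between libraries. Columns of other samples numbered 0.

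Members and lists were chosen with earlier results of these data known. Timing within each line was tested with limma 3.58.1 (R 4.3.3; group means, eBayes with trend) after taking log2(FPKM + 1), over rows that reached 1 FPKM in 2 or more libraries of the line. Late was 40 and 50 DAP, early was 10 and 20 DAP, and tests were two-sided with Benjamini-Hochberg adjustment over all rows tested. The log2 scale understates changes of low rows. The text names all 8 loci, rows next to the limits, and the highest named rows below 3 FPKM. Of the rows most alike and most opposite to the loci, only some are described. Among those left out were the most opposite rows of MSTRG.52994 (GRMZM5G889620, r = -0.87) and of MSTRG.53751 and MSTRG.34518 (GRMZM2G344634, r = -0.62 for each). RefSeq symbols for Zm-B73-REFERENCE-NAM-5.0 were used for names only.

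On data simulated for 31448 rows of T147, 53% of planted log2 changes of 1 and 90% of those of 2 were recovered, and 5.92% of calls were unchanged rows. For 33067 rows of T191 the values were 0%, 42%, and 6.67%. Changes were planted in 100 rows for each size, and only among rows of high mean level. These rates therefore do not cover loci at 0 in most libraries, such as MSTRG.40107, MSTRG.53751, and MSTRG.34518. All other simulated rows were left unchanged, so a call needed a smaller p-value than in the data. In the data 73.6% of rows tested in T147 and 52.9% in T191 passed between late and early, so the recovered shares do not carry over. Ears are separate repeats per the study's methods. Alternatives were a pseudocount of 0.1, no filter, rescaled libraries, 1 model of 40 libraries, the ear number as a block, other limits, and each library left out.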

Additional observations from a re-analysis of the deposited data

How the results depend on the processing

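The number of rows that met the rule was 8 with rescaled libraries, 5 with medians in place of means (MSTRG.52994 from the 8, and MSTRG.30620, MSTRG.39094, MSTRG.40376, and MSTRG.54149, which had more than 0.1 FPKM in 4 to 9 of the 20 parental libraries), 18 with a limit of 2 FPKM, 4 with 5 FPKM, 8 with a parental limit of 0.05 FPKM, and 11 with 0.2 FPKM. Leaving out single libraries gave 6 to 11 rows, with 6 without the first ear of T147 at 10 DAP or at 40 DAP. The opposite set of 41 rows held 74 rows with medians. The counts of loci that passed in T147 say nothing about the loci as a group. MSTRG.40107, MSTRG.53751, and MSTRG.34518 passed the filter only through the DAP where they were high, so a call was bound to follow. In the main fit, 73.6% of all rows tested in T147 passed between late and early and 83.1% for any difference among the 5 DAP. The counts of loci were 3 for late minus early and 4 for any difference among the 5 DAP. They were the same under the other pseudocount, no filter, rescaling, the model of 40 libraries, and the replicate block. Leaving out single libraries gave 2 to 3 and 3 to 4, with the lower count without either ear at 50 DAP, when MSTRG.40107 fell below the filter. In T191, MSTRG.42491 entered the test only with no filter, where it did not pass, and no locus was tested in the other fits. With a value above 0 in only 1 library, MSTRG.42491 says nothing about timing.

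Signs turned for MSTRG.52994, at 0.17 with rescaled libraries and within -0.38 to 0.19 when libraries were left out, and for MSTRG.13993, at -0.071 without the second ear of T147 at 50 DAP and within -0.071 to 0.25 when libraries were left out. The size of MSTRG.40107 was 2.35 to 3.53, of MSTRG.53751 -5.07 to -2.57, and of MSTRG.34518 -5.05 to -2.55 over the alternative settings, with the higher sizes at a pseudocount of 0.1. Deviations of ears of 1 number had r between groups of -0.0605 to 0.216 in T147 and -0.370 to 0.160 in T191. Over all 190 pairs of groups, r ran from -0.370 to 0.466, with a median of 0.0136 and 35 pairs above 0.1. Ear numbers thus showed no steady pairing, and the block, which left the count of late minus early calls at 3, is no paired test. With 2 ears per group and no read counts, values near 0 FPKM have no known detection limit.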
